A study of Danio rerio with 18 samples.

Results

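The genes described here are the Socs3 inhibitors and the Jak kinases, Stat3, receptors and cytokines around them, read across the brains of zebrafish siblings with 0, 1 or 2 mutant copies of mfn2. They were chosen by name: every row of the gene table that carries 1 of 10 symbols (socs3a, socs3b, socs1a, stat3, jak1, jak2a, il6st, lepb, lepr and il11a), a missing paralog letter allowed. This gave 11 of the 32057 genes of the table. Both socs3 genes carry the symbol without a letter and are told apart here by their Ensembl IDs, socs3 (ENSDARG00000025428) and socs3 (ENSDARG00000026611). The symbol for jak2a led to 2 genes, jak2 (ENSDARG00000018882), which the table lists without a letter, and jak2a (ENSDARG00000104808). The gene listed as SOCS1 (ENSDARG00000038095) is called socs1.

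Cytokines of the interleukin-6 family, such as interleukin-11, and the hormone leptin bind receptors that carry no enzyme of their own. For the interleukin-6 family the shared signalling chain is il6st, also called gp130; for leptin it is lepr. Bound receptors activate Jak kinases, which phosphorylate Stat3, and phosphorylated Stat3 enters the nucleus and switches on genes that include socs3. The Socs3 protein then binds the receptor and the kinase and shuts the signal down, so socs3 transcript is widely read as a trace of the pathway. In zebrafish, Stat3 acts in Müller glia during regeneration of the retina, and il11a and lepb are transcribed in injured heart and fin.

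Messenger RNA was counted in 18 libraries, each from whole brains of 4 fish, 2 female and 2 male, pooled at 4 months of age. Carriers of 1 copy of the hu3528 allele of mfn2, a loss-of-function allele by the series title, were mated, and 6 such pairs gave 6 families. Each family gave 1 library of wild type (+/+, WT), 1 of heterozygous (+/-, Het) and 1 of homozygous mutant siblings (-/-, Hom). Fish were genotyped at 2.5 months and then kept in 1 tank per genotype and family, so genotype and tank cannot be told apart within a family. The labels name no treatment and no transgene, and mfn2 encodes mitofusin 2, a protein of the outer mitochondrial membrane that acts in mitochondrial fusion.

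Total counts ran from 21945070 to 42897654 per library, and levels are given as normalised CPM, which relate a gene's count to the TMM-scaled size of its library. The mfn2 transcript ran from 120.2 ± 23.0 normalised CPM in WT to 82.9 ± 18.5 in Het and 29.0 ± 3.22 in Hom brains (mean ± SD of 6 libraries). In family 2 the library labelled WT had 75.2, against 119.9 to 140.2 in the other WT libraries, and the library labelled Het had 117.1, against 67.8 to 86.4 in the other Het libraries; libraries are named by their labels throughout. The Het libraries of families 1 and 3 and the Hom library of family 3 stood apart. The measure was the SD of a library's log2 deviations from each gene's median over all 18 libraries. It was 0.73 to 1.11 in these 3 libraries and 0.266 to 0.377 in the other 15. Summed oocyte markers reached 215 CPM in the Hom library of family 3 and at most 7.31 elsewhere. Neuron markers, abundant in every library as the label of whole brain implies, summed to 13340 to 14670 CPM in WT, 13600 to 14590 in Het, 10520 to 11930 in 5 Hom libraries and 14190 in the Hom library of family 3. Genes for the 13 proteins encoded in mitochondrial DNA took 8.68% to 10.5% of counts in WT, 8.92% to 11.9% in Het and 1.93% to 6.19% in Hom. All Hom libraries lay below all WT and Het libraries, and the Hom library of family 3 was the lowest. The part of this shift in the results was not tested. Results below are also given without these 3 libraries or without family 2 where either matters.

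The main picture was a high level of both socs3 genes, and a smaller rise of stat3, in Hom brains. Of the 11 genes, 10 passed the filter on low counts and were tested, and il11a was not. For Hom against WT, 3 of the 10 passed edgeR's quasi-likelihood test at a Benjamini-Hochberg adjusted p of 0.05, all higher in Hom, where 1.92% of all 20353 genes tested passed, 1.49% of them higher and 0.423% lower. For Hom against Het, 4 of the 10 passed, all higher in Hom, beside 1.99% of all genes tested, 1.19% higher and 0.801% lower. For Het against WT, 0 of the 10 and 0% of all genes passed in edgeR; 524 genes, or 2.57%, had an unadjusted p below 0.05, and DESeq2 called 2 genes, neither of the set. The set was chosen with earlier results of these data known, so these counts describe it and are not a test of it. Leaving out the 3 libraries that stood apart raised the shares of all genes that passed to 8.05% for Hom against WT and 4.77% for Hom versus Het; leaving out family 2 lowered them to 1.19% and 0.87%. The same WT libraries serve both comparisons with WT, and the same Hom libraries both comparisons with Hom.

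socs3 (ENSDARG00000025428), a feedback inhibitor of Jak-Stat3 signalling, had the largest fold among the 10 genes tested. In WT, families 1 to 6 gave 7.16, 4.25, 3.41, 7.10, 4.91 and 22.8 normalised CPM. In Het the same families gave 13.6, 4.38, 8.98, 13.4, 8.0 and 25.9. In Hom they gave 52.1, 38.8, 42.5, 60.6, 47.4 and 49.8. All 6 Hom libraries lay above all WT and Het libraries, a pattern that 1.62% of genes tested had towards WT and 1.3% towards Het. WT and Het overlapped, and in both of these genotypes family 6 was the highest.

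WT averaged 8.27 ± 7.27, Het 12.4 ± 7.48 and Hom 48.5 ± 7.63 (SD, n = 6 each). Hom exceeded WT 7.42-fold, a log2 fold change of 2.89 ± 0.281 (SE; adjusted p = 0.000187), and exceeded Het 4.65-fold, 2.22 ± 0.271 (adjusted p = 0.000952). It was higher than either in 6 of 6 families, as were 6.96% of all genes tested for Hom against WT and 5.57% for Hom over Het. Het stood 0.67 ± 0.264 above WT on the log2 scale, with a 95% interval of 0.104 to 1.245. That difference had an unadjusted p of 0.0241 and an adjusted p of 0.903, so it did not pass. Het was nevertheless above WT in 6 of 6 families, as were 1.63% of all genes tested.

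The size of the socs3 (ENSDARG00000025428) difference varied between families. The ratio of Hom to WT was 7.28 to 12.5 in families 1 to 5 and 2.18 in family 6, whose WT library was at 22.8. The Hom level of family 6, 49.8, lay within the range of the other Hom libraries. The ratio of Het to WT ran from 1.03 in family 2 to 2.63 in family 3. With the 3 libraries that stood apart left out, the log2 change was 2.74 for Hom against WT (adjusted p = 0.000153), 0.47 for Het against WT (adjusted p = 1) and 2.27 for Hom against Het (adjusted p = 0.00145). Without family 2 these values were 2.83 (adjusted p = 0.00149), 0.78 (adjusted p = 0.909) and 2.06 (adjusted p = 0.00913).

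**Figure D1:**
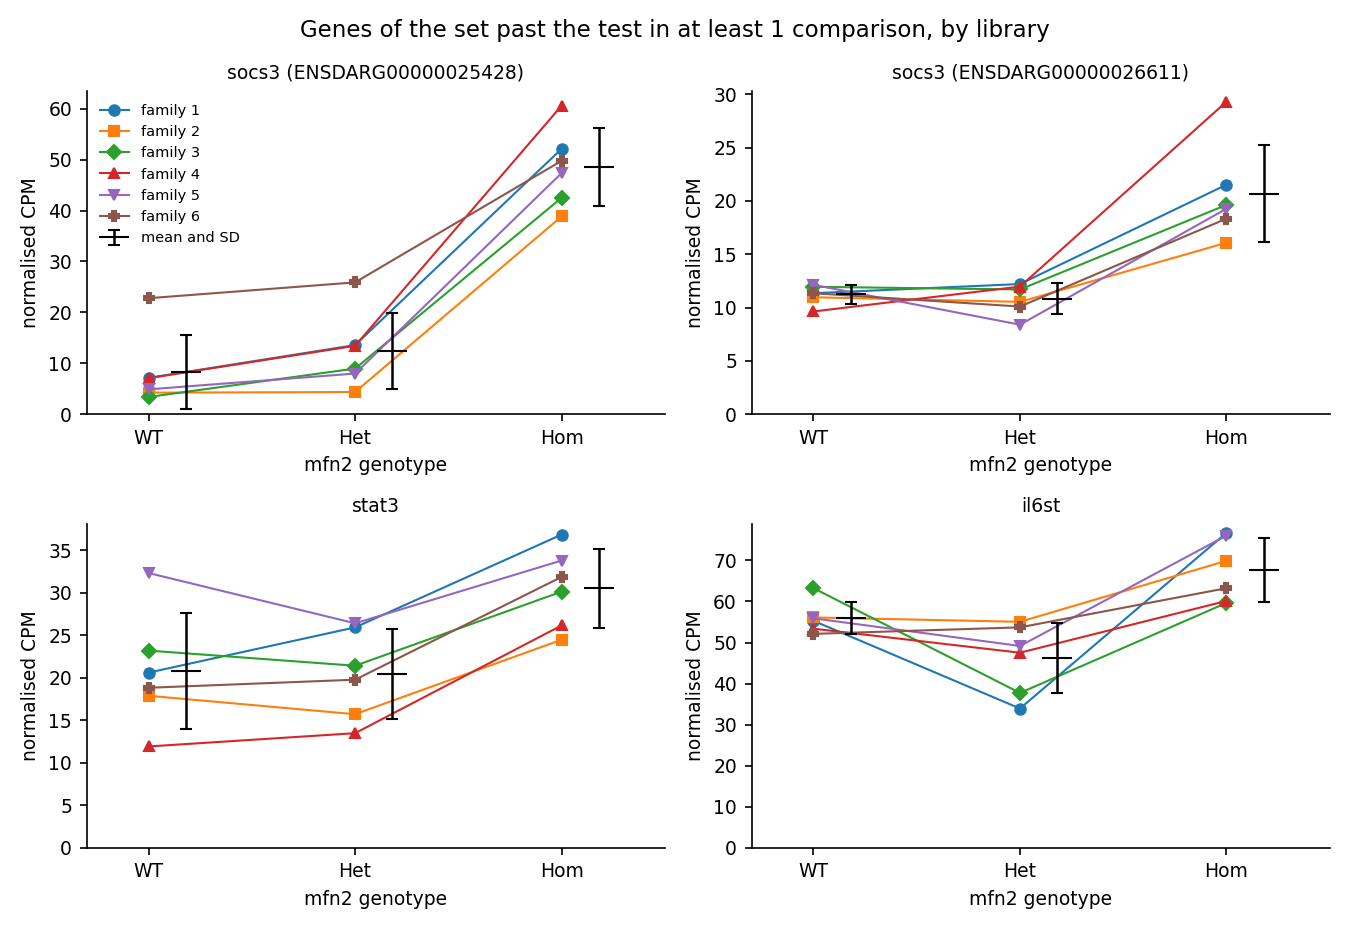
Normalised CPM (y axes, from 0) in each of the 18 libraries for both socs3 genes, stat3 and il6st, by genotype (x axes). A marker shape stands for a family, lines join the libraries of a family, and black bars give mean ± SD with n = 6. The 6 Hom libraries of socs3 (ENSDARG00000025428), 38.8 to 60.6, lie above every WT and Het library, while the Hom libraries of stat3 overlap those of WT.

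socs3 (ENSDARG00000026611), the second socs3 gene, was steady in WT and Het and higher in Hom. Families 1 to 6 gave 11.35, 10.97, 11.95, 9.64, 12.13 and 11.35 normalised CPM in WT. They gave 12.21, 10.54, 11.70, 11.97, 8.40 and 10.10 in Het. They gave 21.52, 16.08, 19.63, 29.30, 19.27 and 18.34 in Hom. The lowest Hom library, of family 2, was above the highest WT and Het libraries, and family 4 was the highest Hom library.

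Averages of socs3 (ENSDARG00000026611) were 11.2 ± 0.889 for WT, 10.8 ± 1.45 for Het and 20.7 ± 4.58 for Hom (SD, n = 6 each). Hom exceeded WT 1.81-fold, 0.86 ± 0.133 on the log2 scale (adjusted p = 0.00456), and Het 1.90-fold, 0.93 ± 0.133 (adjusted p = 0.00318), higher in 6 of 6 families each time. Het differed from WT by −0.07 ± 0.132 (adjusted p = 0.91; 95% interval −0.354 to 0.218). The log2 fold changes of Hom were 0.90 against WT (adjusted p = 0.00233) and 1.01 against Het (adjusted p = 0.00276) without the 3 libraries that stood apart. They were 0.93 (adjusted p = 0.0154) and 1.00 (adjusted p = 0.0128) without family 2.

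Both socs3 genes rose in Hom, but not by the same amount. Within families, the log2 ratio of Hom to WT was on average 1.93 ± 0.873 larger (SD, n = 6 families) for socs3 (ENSDARG00000025428) than for socs3 (ENSDARG00000026611). It was larger in 6 of 6 families, with an exact two-sided permutation p of 0.03125, the smallest that 6 families allow (0.0312 after Benjamini-Hochberg adjustment over the 3 comparisons). For Hom against Het the difference was 1.22 ± 0.763 and for Het against WT 0.71 ± 0.467, each positive in 6 of 6 families with the same exact permutation p. In the families without a library that stood apart, the mean difference was 1.76 for Hom against WT (5 of 5 families), 1.19 for Hom against Het (4 of 4) and 0.54 for Het against WT (4 of 4). The 3 comparisons share libraries and are not independent of each other.

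socs1, another inhibitor of the same family that acts on Jak kinases, was counted at 27 to 120 reads per library. Its level was 1.06 to 2.02 normalised CPM in WT with a median of 1.45, 1.07 to 3.66 in Het with a median of 1.65, and 1.93 to 4.1 in Hom with a median of 2.43. The lowest Hom library, of family 2, lay within the WT range. Hom was above WT in 6 of 6 families, by 0.85 ± 0.243 on the log2 scale, without passing the test (adjusted p = 0.11). The values were 0.26 ± 0.245 for Het against WT (adjusted p = 0.903) and 0.59 ± 0.243 for Hom against Het (adjusted p = 0.196). Once the 3 libraries that stood apart were left out, Hom passed against WT, at 0.93 (adjusted p = 0.0236), and against Het, at 0.93 (adjusted p = 0.0491). DESeq2 on all libraries gave 0.86 for Hom against WT with an adjusted p of 0.0229, where it called 5.18% of all genes.

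stat3 encodes the transcription factor of the pathway. WT libraries of families 1 to 6 had 20.6, 17.9, 23.2, 11.9, 32.3 and 18.8 normalised CPM, and Het libraries 25.9, 15.7, 21.4, 13.5, 26.4 and 19.8. Hom libraries had 36.8, 24.5, 30.1, 26.1, 33.8 and 31.9. The groups overlapped, since the WT library of family 5 was above 4 of the Hom libraries, yet within its own family each Hom library was the highest of the 3.

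Mean stat3 was 30.5 ± 4.65 in Hom, against 20.8 ± 6.78 in WT and 20.5 ± 5.25 in Het (SD, n = 6 each). Hom exceeded WT 1.52-fold, 0.60 ± 0.121 on the log2 scale (adjusted p = 0.0227), and Het 1.53-fold, 0.61 ± 0.121 (adjusted p = 0.0225). Het and WT differed by −0.01 ± 0.121 (adjusted p = 0.983; 95% interval −0.274 to 0.249). The calls rested on comparing siblings: with family left out of the model the stat3 values were 0.56 (adjusted p = 0.213) and 0.58 (adjusted p = 0.118), in fits where 1.68% and 2.08% of all genes passed. Without family 2 they were 0.65 (adjusted p = 0.0642) and 0.62 (adjusted p = 0.0821), and without the 3 libraries that stood apart 0.66 (adjusted p = 0.00603) and 0.70 (adjusted p = 0.00955).

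Of the kinases, jak1, which pairs with il6st, did not pass with all libraries. It was at 44.2 to 55.7 normalised CPM in WT, 42.5 to 53.1 in Het and 48.2 to 78.6 in Hom, with medians of 47.4, 49.0 and 59.3. The highest Hom value came from family 3, a library that stood apart. Hom was above WT in 6 of 6 families, by 0.32 ± 0.107 (adjusted p = 0.192), and above Het in 5 of 6, by 0.31 ± 0.108 (adjusted p = 0.152). Without those 3 libraries, jak1 passed for Hom against WT at 0.29 (adjusted p = 0.0207) and did not for Hom against Het at 0.14 (adjusted p = 0.328).

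jak2 (ENSDARG00000018882), the kinase bound by the leptin receptor in mammals, was close to level across genotypes. WT averaged 39.3 ± 2.52, Het 37.1 ± 5.66 and Hom 40.1 ± 1.51 (SD, n = 6 each). Hom and WT differed by 0.03 ± 0.0955 on the log2 scale (adjusted p = 0.908; 95% interval −0.178 to 0.235). Het differed from WT by −0.09 ± 0.0957 (adjusted p = 0.903), and its lowest library, family 3, was at 27.1.

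jak2a (ENSDARG00000104808) turned on the libraries that stood apart. WT libraries ran from 45.7 to 70.0 normalised CPM. Het libraries of families 1 and 3 were at 26.8 and 18.1 and the other 4 Het libraries at 43.3 to 73.8, while the Hom library of family 3 was at 154.5 and the other 5 Hom libraries at 36.5 to 55.2. With all 18 libraries Hom differed from WT by 0.11 ± 0.378 (adjusted p = 0.907), with Hom higher in 1 of 6 families. In the other 15 libraries, jak2a was lower in Hom, by −0.31 ± 0.067 against WT (adjusted p = 0.0161) and −0.28 ± 0.0729 against Het (adjusted p = 0.0472). The mean levels were then 55.6 in WT (n = 6), 56.9 in Het (n = 4) and 46.2 in Hom (n = 5).

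**Figure D2:**
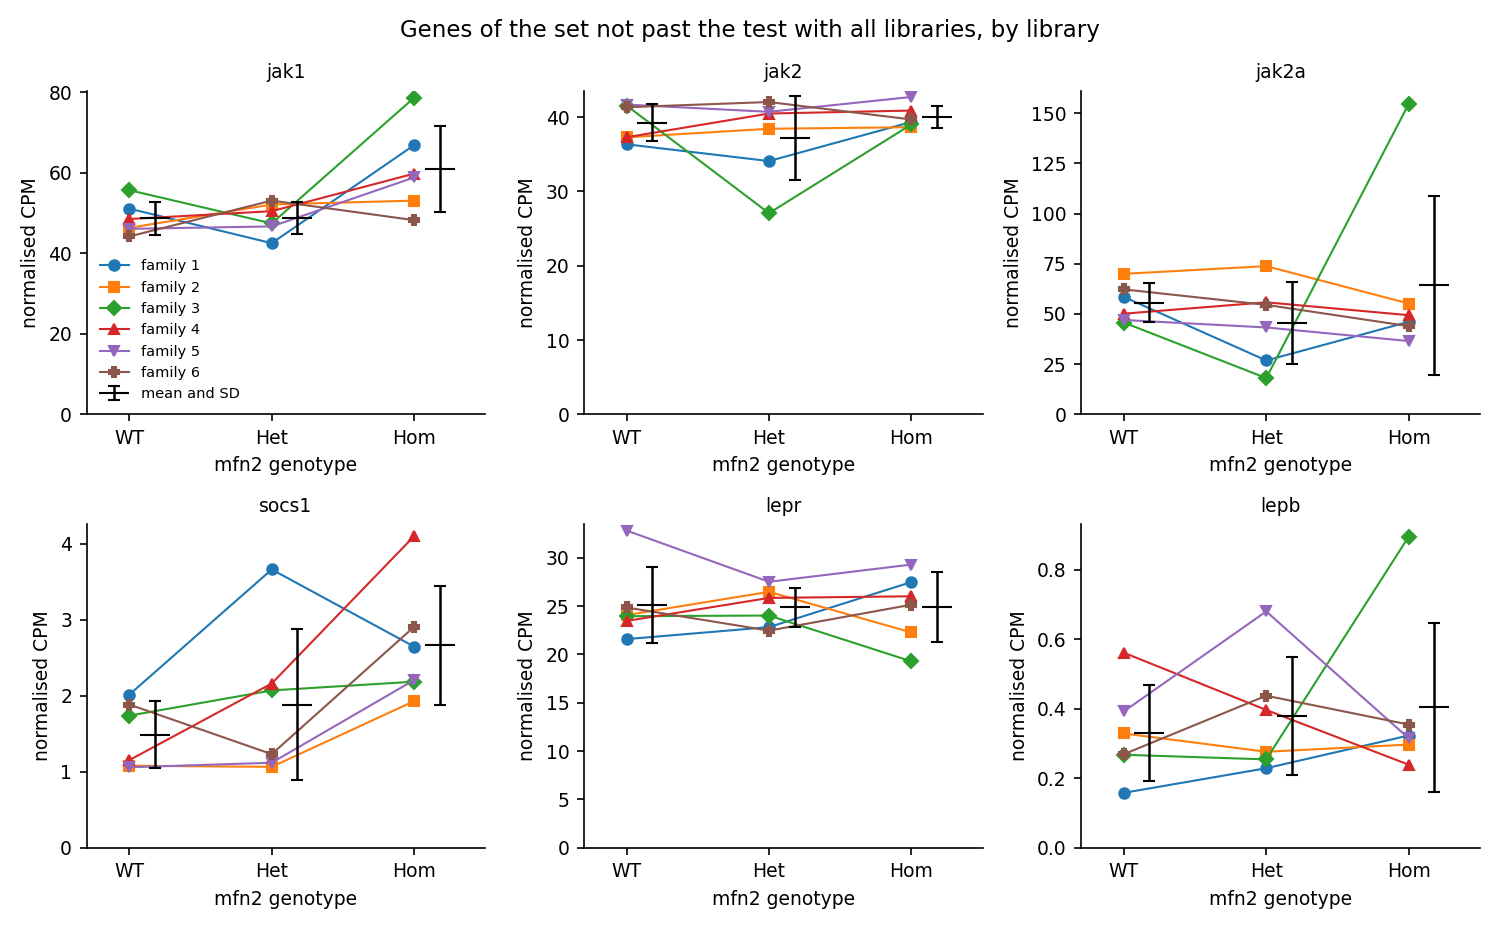
Normalised CPM (y axes, from 0) by library and genotype (x axes) for socs1, jak1, jak2, jak2a, lepr and lepb, with marker shapes for families and black bars for mean ± SD (n = 6). In jak2a the Hom library of family 3 stands at 154.5, while the other 17 libraries lie between 18.1 and 73.8.

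il6st, the shared receptor chain of interleukin-6 family cytokines, separated Hom from Het. Families 1 to 6 gave 55.3, 56.1, 63.2, 53.4, 55.9 and 52.1 normalised CPM in WT and 33.9, 55.0, 37.7, 47.5, 49.2 and 53.7 in Het. They gave 76.7, 69.9, 59.6, 60.1, 76.0 and 63.2 in Hom. The lowest Het values were those of families 1 and 3, which stood apart, and the lowest Hom value was that of family 3, which lay below the WT library of the same family.

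For il6st, Hom averaged 67.6 ± 7.72, WT 56.0 ± 3.87 and Het 46.2 ± 8.57 (SD, n = 6 each). Hom exceeded Het 1.47-fold, 0.56 ± 0.126 on the log2 scale (adjusted p = 0.043). Hom against WT was 0.27 ± 0.126 (adjusted p = 0.358), higher in 5 of 6 families, and Het against WT was −0.29 ± 0.126 (adjusted p = 0.903). In the 15 libraries that did not stand apart, il6st passed for Hom against both WT, at 0.35 (adjusted p = 0.00565), and Het, at 0.41 (adjusted p = 0.00507), and Het stood at −0.07 against WT (adjusted p = 1). Without family 2, Hom against Het was 0.61 (adjusted p = 0.0919).

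lepr, the leptin receptor, showed no detectable difference. WT averaged 25.1 ± 3.92 normalised CPM, Het 24.9 ± 2.06 and Hom 24.9 ± 3.63 (SD, n = 6 each). The difference on the log2 scale was −0.01 ± 0.0988 for Hom against WT (adjusted p = 0.973), with a 95% interval of −0.223 to 0.204. WT family 5 was the highest library at 32.8.

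lepb, a leptin gene, was counted at only 4 to 18 reads per library. WT averaged 0.330 ± 0.137 normalised CPM, Het 0.379 ± 0.169 and Hom 0.404 ± 0.243 (SD, n = 6 each). Hom against WT was 0.26 ± 0.388 (adjusted p = 0.781). The 95% interval, −0.577 to 1.102, left both a fall and a rise of lepb possible at this depth. The highest value, 0.895, was that of the Hom library of family 3, and without the 3 libraries that stood apart the lepb value was −0.12 (adjusted p = 0.889).

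il11a, a cytokine of the interleukin-6 family, lay below the filter on low counts and was counted almost solely in Hom. WT libraries of families 1 to 6 held 0, 0, 3, 3, 2 and 1 reads, all 6 Het libraries held 0, and Hom libraries held 9, 7, 19, 18, 10 and 12. The pooled level was 0.0501 CPM in WT (exact Poisson 95% interval 0.0229 to 0.0952) and 0.457 in Hom (0.36 to 0.573). In Het, with 0 reads, the same exact interval ran from 0 to 0.0235 CPM. The floor used below is the level of 3 counts over the group, 0.0191 CPM, a one-sided limit that is lower than the end of that interval. Intervals and floors cover counting error only. Every Hom library was above every WT and Het library.

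The pooled il11a level of Hom was 9.12 times that of WT and 23.9 times the Het floor of 3 counts over the group. The ratio to the floor leaves out the counting error of the Hom level, so it is not a lower bound. Hom was above both WT and Het in 6 of 6 families, with an exact two-sided permutation p of 0.03125 each, the smallest that 6 families allow. When the filter was dropped and 27047 genes were tested in edgeR, il11a had an adjusted p of 0.0533 for Hom against WT, where 1.16% of those genes passed. It passed for Hom against Het, with an adjusted p of 0.0111, where 1.1% did. Without family 3 the Hom libraries held 7 to 18 reads.

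**Figure D3:**
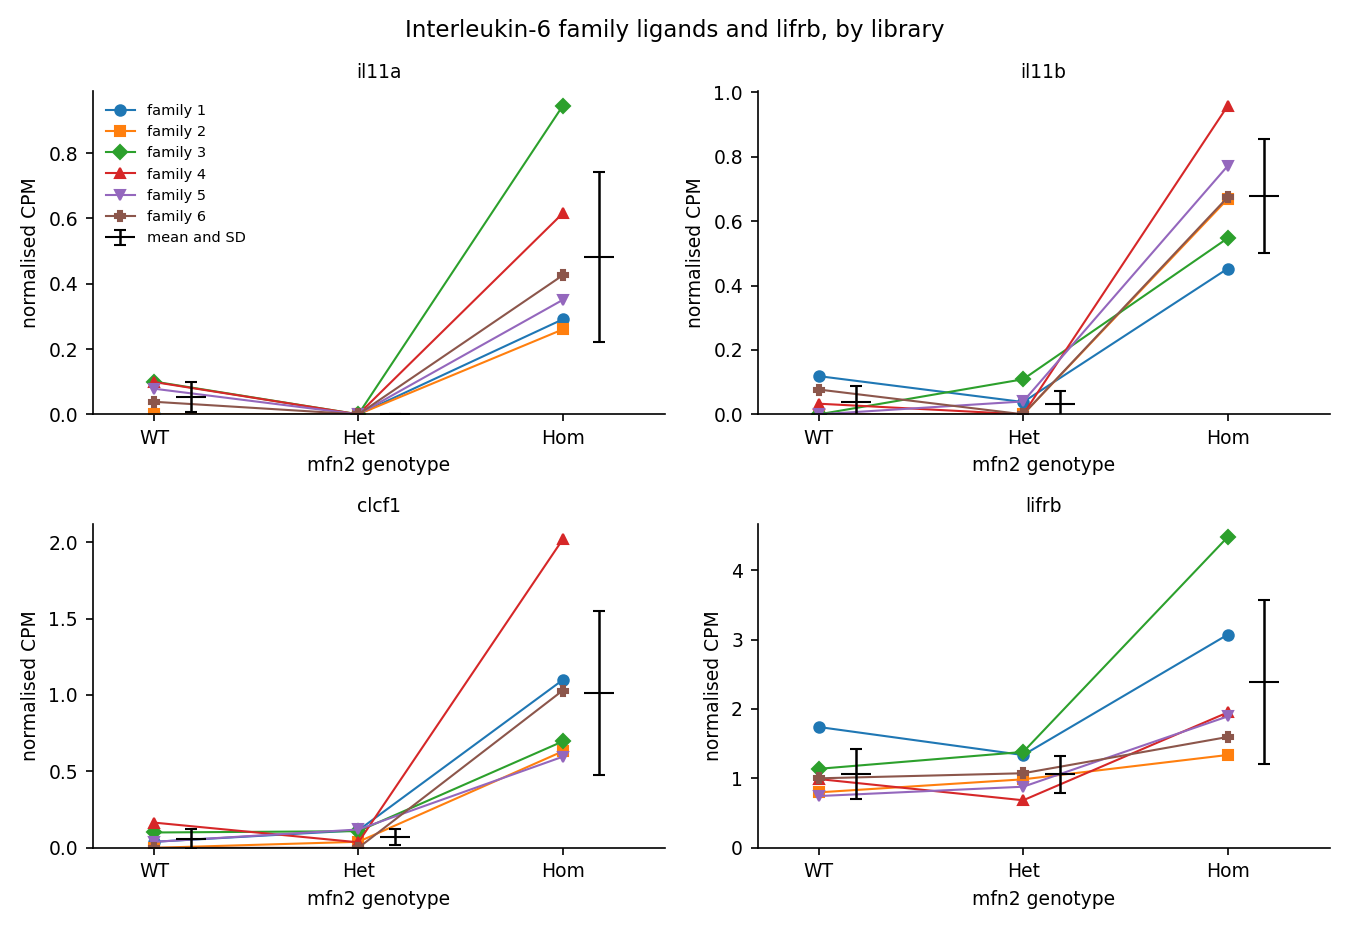
Normalised CPM per library (y axes, from 0) of il11a, il11b, clcf1 and lifrb by genotype (x axes). Marker shapes stand for families, and black bars give mean ± SD (n = 6), cut at 0 by the axes. In read counts, the Hom libraries hold 7 to 19 of il11a, 11 to 28 of il11b and 14 to 59 of clcf1. WT and Het libraries hold at most 5 of any of these ligands.

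Beyond the set, 111 other genes of the Jak-Stat pathway were listed by role, and 82 of them were tested. For Hom against WT, 6 passed (7.32%, beside 1.92% of all genes), all higher, with a median log2 fold change of 0.21 over the 82 beside 0.04 over all genes tested. For Hom against Het, 3 passed (3.66%, beside 1.99%), all higher, with a median of 0.28 beside 0.06. In each comparison 2 of these were the ligand genes il11b and clcf1, which passed the filter on low counts only through the Hom libraries; without them 4 of 80 (5%) were left for Hom against WT and 1 of 80 (1.25%) for Hom against Het. For Het against WT, 0 passed in edgeR, and the median was 0.04 beside 0.01. Of the 82, 3 had an unadjusted p below 0.05, as did 2.57% of all genes. In the 15 libraries that did not stand apart, 16 of 83 passed for Hom against WT, which included the same 6 genes, where 8.05% of all genes then passed.

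Among the 21 ligands tested, the genes that passed for Hom against WT were il11b and clcf1, both near silent outside Hom. They entered the test through the Hom libraries, where they were high, so their count says nothing of the ligands as a group. il11b, the second interleukin-11 gene, had 6 reads over all WT libraries, 5 over all Het libraries and 11 to 28 reads in each Hom library. Its fitted log2 fold change was 4.15 ± 0.718 against WT (adjusted p = 0.00959) and 4.27 ± 0.745 against Het (adjusted p = 0.0105). clcf1, a cytokine that signals through il6st, had 10 reads over all WT libraries, 11 over all Het libraries and 14 to 59 reads in each Hom library. Its values were 4.14 ± 0.582 (adjusted p = 0.00246) and 3.76 ± 0.579 (adjusted p = 0.0051). Folds from such low counts depend on the prior count. The leptin gene lepa (0.34, adjusted p = 0.793) and cntf (0.07, adjusted p = 0.892) did not pass.

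Among the receptors, 2 of 32 passed for Hom against WT, beside 1.92% of all genes, with a median over the 32 of 0.44. Of these 32, 15 had an unadjusted p below 0.05 in edgeR, as did 14.3% of all genes. lifrb, a receptor chain that pairs with il6st, averaged 2.39 ± 1.18 normalised CPM in Hom, 1.07 ± 0.359 in WT and 1.06 ± 0.268 in Het (SD, n = 6 each). It rose by 1.1 ± 0.208 on the log2 scale against WT (adjusted p = 0.017; 0.06 with family left out of the model). il4r.1, an interleukin-4 receptor chain, was at 0.821 ± 0.0872 in WT and 2.54 ± 1.24 in Hom, 1.49 ± 0.305 on the log2 scale (adjusted p = 0.0242). That call was lost in 11 of 24 fits that left out 1 family or library (adjusted p up to 0.119), and il4r.1 did not pass for Hom against Het (adjusted p = 0.107). The interleukin-11 receptor il11ra (0.49, adjusted p = 0.584), il6r (0.23, adjusted p = 0.715) and cntfr (−0.03, adjusted p = 0.886) did not pass.

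Of the kinases outside the set, jak3 (0.50, adjusted p = 0.411) and tyk2 (0.11, adjusted p = 0.781) did not pass for Hom against WT. Of the other Stat genes listed, 1 of 5 passed, beside 1.92% of all genes. stat2, a factor of interferon signalling, averaged 43.3 ± 6.13 normalised CPM in Hom, 29.4 ± 5.22 in WT and 31.9 ± 6.55 in Het (SD, n = 6 each). It rose by 0.57 ± 0.13 (adjusted p = 0.0443) and did not pass without family 2 (adjusted p = 0.17) or with family left out of the model (0.0587).

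Apart from the socs3 pair, no Socs gene or cish passed for Hom against WT in edgeR with all 18 libraries. As given above, socs1 passed once the 3 libraries that stood apart were left out. Of 10 other genes of this family 0 passed, beside 1.92% of all genes, and 1 had an unadjusted p below 0.05, as did 14.3% of all genes. cish, an inhibitor induced by Stat5, stood at 0.48 ± 0.158 (adjusted p = 0.177), and socs2 at 0.30 ± 0.145 (adjusted p = 0.373). Beside 1.92% of all genes, 1 of the 12 other inhibitors passed. This was ptprc, which encodes the leukocyte surface phosphatase CD45 and is also on the microglia list; it rose by 0.77 ± 0.173 (adjusted p = 0.0412; 0.0598 without family 2). The phosphatase genes ptpn11 (−0.15, adjusted p = 0.691) and ptpn2 (−0.06, adjusted p = 0.821) did not pass.

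**Figure D4:**
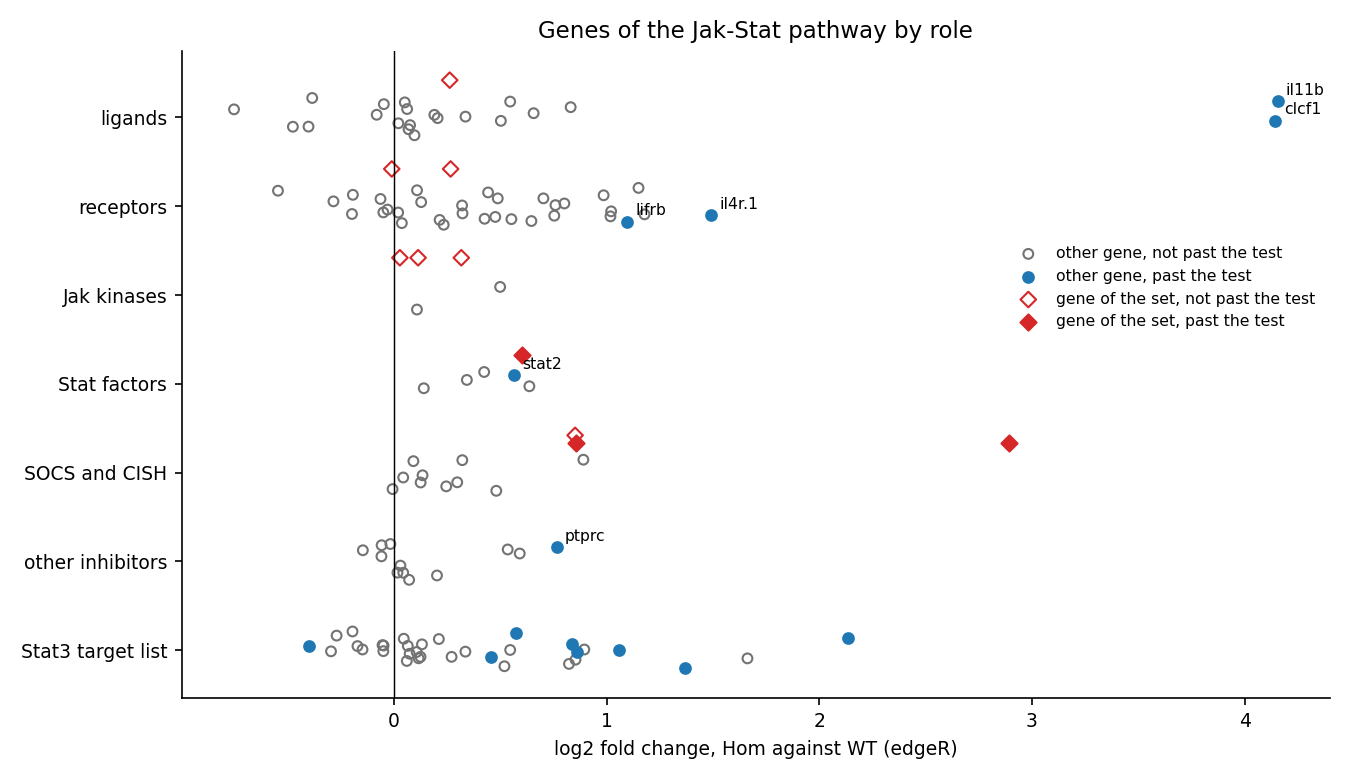
Log2 fold change of Hom against WT from edgeR (x axis) for each tested gene of the set (red diamonds), of the other Jak-Stat lists and of the Stat3 target list (circles), by role (y axis; vertical offsets within a role only separate points). Filled symbols passed at an adjusted p of 0.05; il11b and clcf1 lie furthest right, and the filled target on the left is vegfa (ENSDARG00000034700).

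A list of genes known as Stat3 targets in vertebrates held 33 tested genes outside the set. It was drawn up with the other lists, with earlier results of these data known. Its counts describe the list and are not a test of Stat3 activity. For Hom against WT, 7 were higher and 1 lower, where 1.49% of all genes were higher and 0.423% lower, with a median log2 fold change of 0.13 beside 0.04 over all genes tested. For Hom against Het, 4 were higher and 1 lower, where 1.19% of all genes were higher and 0.801% lower. For Het against WT 0 passed in edgeR, and 1 of the 33 had an unadjusted p below 0.05, as did 2.57% of all genes. cebpd, a transcription factor of the acute phase response, averaged 33.9 ± 13.8 normalised CPM in Hom, 8.20 ± 5.30 in WT and 10.1 ± 6.39 in Het (SD, n = 6 each), and rose by 2.13 ± 0.239 (adjusted p = 0.000437). Its relative cebpb rose by 0.86 ± 0.1 (adjusted p = 0.000557). The AP-1 subunit gene junb (ENSDARG00000074378) rose by 1.37 ± 0.264 (adjusted p = 0.0182), and the survival gene mcl1b by 0.57 ± 0.111 (adjusted p = 0.0182; 0.165 with family left out of the model).

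The kinase gene pim1 rose by 0.46 ± 0.0891 (adjusted p = 0.0198; 0.0795 with family left out of the model). Of the other targets that passed, irf1b stood at 1.06 (adjusted p = 0.0241) and hbegfa at 0.84 (adjusted p = 0.0213); these 2 were named after their values were seen. vegfa (ENSDARG00000034700), an endothelial growth factor gene, fell by 0.40 on the log2 scale (adjusted p = 0.039; 0.0791 with family left out of the model), from 34.2 ± 3.76 in WT and 38.2 ± 6.47 in Het to 25.9 ± 2.11 in Hom. Among the targets that did not pass were the glial genes gfap (−0.17, adjusted p = 0.771) and lin28a (ENSDARG00000016999; 0.85, adjusted p = 0.372), and bcl3 (1.66, adjusted p = 0.214). The second junb gene (ENSDARG00000104773) stood at 0.82 (adjusted p = 0.0622). In the 15 libraries that did not stand apart, 9 of the 33 were higher and 1 lower for Hom against WT, where 8.05% of all genes passed. Without family 2, junb (adjusted p = 0.0641), mcl1b (0.0724), pim1 (0.0864) and vegfa (0.186) did not pass.

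The genes whose levels ran most like socs3 (ENSDARG00000025428) were read from Pearson's r of log2(CPM + 0.5) over the 18 libraries, given as a description. The highest were gadd45b (ENSDARG00000027744), a stress-induced gene, at 0.962, zgc:162730 at 0.953, cebpd at 0.937, igfbp1 at 0.923, dusp1, a phosphatase gene of MAP kinases, at 0.917, mych at 0.916, isg15 at 0.915 and trib3 at 0.912. These 18 points share genotype and family, and all 8 genes were higher in Hom than in WT. Other genes of the set were less like it: socs3 (ENSDARG00000026611) had an r of 0.787, il11a 0.728, socs1 0.662 and stat3 0.51.

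After the genotype mean was taken out of each library, the order changed. gadd45b (ENSDARG00000027744) remained the highest at 0.913, followed by nr4a1 at 0.819, cebpd at 0.819, zgc:162730 at 0.805, pim1 at 0.793, zgc:122979 at 0.791, dhodh at 0.778 and ier2b at 0.777. nr4a1 and ier2b are immediate early genes. The WT and Het libraries of family 6 were the highest of their genotype for socs3 (ENSDARG00000025428). With the family 6 libraries dropped, these values ran from 0.505 for pim1 to 0.794 for gadd45b. The genotype means were still those taken with family 6, so these values are not free of family 6 or of genotype. Within genotypes socs3 (ENSDARG00000026611) had an r of 0.146 with socs3 (ENSDARG00000025428), il11a −0.032 and stat3 −0.09.

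**Figure D5:**
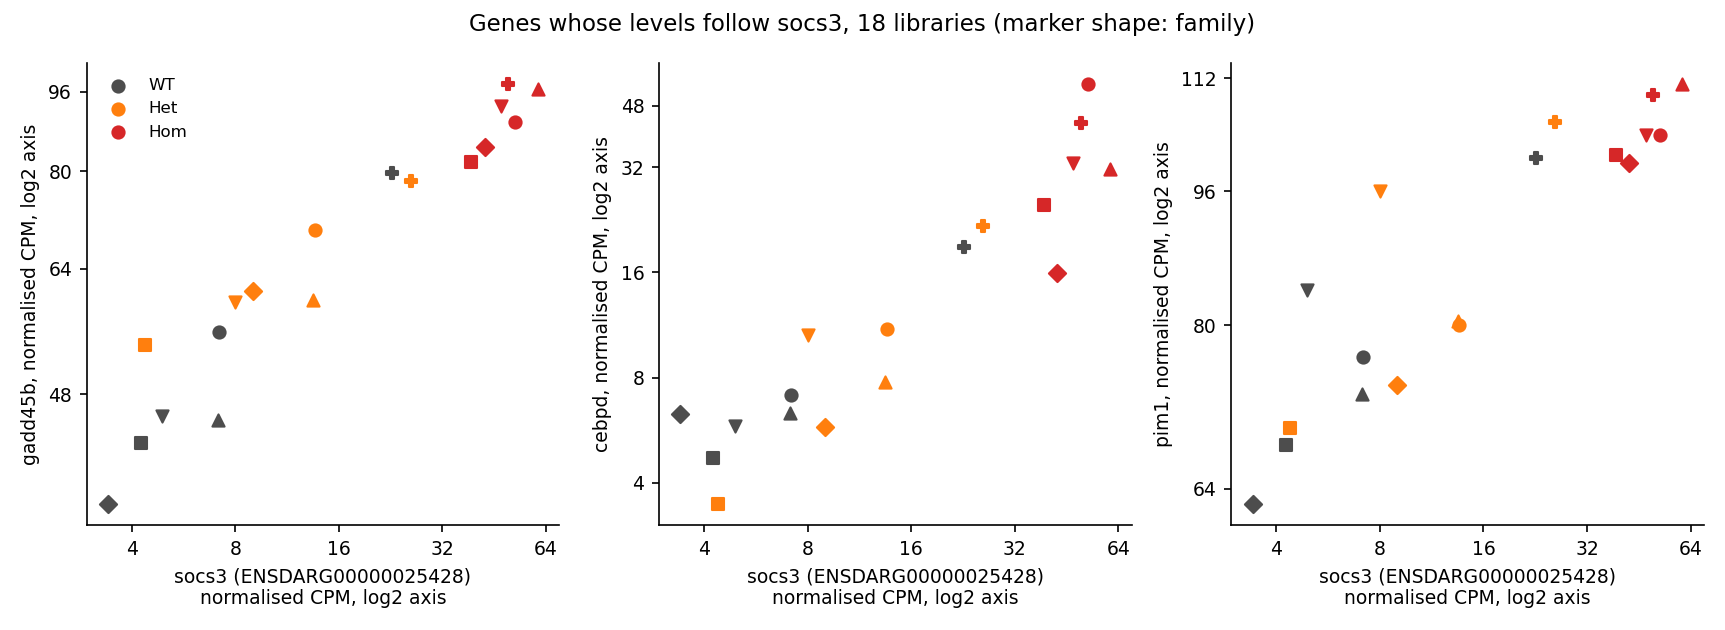
Level of gadd45b (ENSDARG00000027744), cebpd and pim1 (y axes) against socs3 (ENSDARG00000025428; x axes) in 18 libraries, all in normalised CPM on log2 axes, with colour for genotype and marker shape for family. The WT and Het libraries of family 6 (crosses) lie between the other WT and Het libraries and the Hom libraries on the x axis, at 22.8 and 25.9.

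Markers of microglia, cells that use Jak-Stat signalling, moved with the Hom group. Summed over 34 genes, they ran from 1120 to 1500 normalised CPM in WT, 1120 to 1800 in Het and 884 to 2550 in Hom, and the lowest Hom value was that of family 3. Of 29 tested microglia markers, 7 were higher in Hom than in WT and 0 lower, where 1.92% of all genes passed. Without the 3 libraries that stood apart 18 were higher and 1 lower, where 8.05% of all genes passed. The macrophage receptor gene marco rose by 1.02 (adjusted p = 0.00738) and apoeb by 1.41 (adjusted p = 0.0318), while csf1ra stood at 0.79 (adjusted p = 0.0952). With all libraries, 28 of the 29 had a log2 fold change above 0 for Hom against WT. Some were near 0, such as cyba at 0.07 (adjusted p = 0.892) and cybb at 0.04 (adjusted p = 0.91). aif1l went the other way, at −0.35 (adjusted p = 0.187), and was higher in Hom in 0 of 6 families. No marker of the list was at 0 in all Hom libraries, against 1 in WT and 2 in Het, which rested on very few reads. mfap4 (ENSDARG00000111491) had 0 reads over WT, 0 over Het and 1 over Hom libraries. mfap4 (ENSDARG00000038681) had 7, 0 and 5. In bulk brain, more cells of a type and more RNA per cell cannot be told apart, and the part of microglia in the socs3 and Jak-Stat values was not tested.

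Other cell type markers also moved with Hom, and their part was not tested either. The summed endothelial markers were 356 to 456 normalised CPM in WT, 365 to 473 in Het and 405 to 662 in Hom, higher in Hom than in the WT siblings in each of the 6 families. Of 22 endothelial markers tested, 2 were higher in Hom than in WT and 0 lower, where 1.49% of all genes were higher and 0.423% lower. Without the 3 libraries that stood apart 6 were higher, where 4.77% of all genes were higher. Of 19 neuron markers, 3 were lower and 0 higher with all libraries. Without those libraries 7 were lower, where 3.29% of all genes were lower. The summed radial glia markers were 5480 to 7260 normalised CPM in WT, 5300 to 6980 in Het and 4670 to 6560 in Hom. Each Hom sum was below that of its WT sibling. Of 18 radial glia markers tested, 1 was higher and 0 lower in Hom than in WT, with a median log2 fold change of −0.23. Without the 3 libraries that stood apart the radial glia median was −0.051.

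Neutrophil markers, other cells with active Stat3, summed to 57.6 to 72.6 normalised CPM in WT, 52 to 109 in Het and 44.8 to 78.3 in Hom. For Hom against WT 0 of 8 passed in edgeR, and 2 had an unadjusted p below 0.05, as did 14.3% of all genes. In the Hom library of family 3, with the lowest microglia sum and the oocyte markers, socs3 (ENSDARG00000025428) was at 42.5 and socs3 (ENSDARG00000026611) at 19.6. Both lay within the range of the other Hom libraries. Not every microglia marker was low in that library. The markers spi1, havcr1, slc7a7, marco and p2ry12 were higher in every Hom library than in every WT library. aif1l was lower in every Hom library, and the other tested microglia markers overlapped between Hom and WT. The part of microglia in these socs3 levels was not tested.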

How the data were processed

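The deposited values are whole-number counts per gene, a table of the whole series with 18 columns of values, all matched to samples by name, and 0 left unused. Reads were processed with STAR 2.7.0a and featureCounts (Subread 1.5.2) on GRCz11, per the submitters' processing notes. Not given in the sources used here: the annotation version, strandedness and multimapping. Genes with a close copy (both socs3 genes, both jak2 genes) or an overlapping gene may share or lose reads. A symbol table named 28988 of the 32057 IDs. No coordinates are given, and levels are not compared between genes because no lengths were at hand.

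Counts were tested with edgeR 4.0.16 (limma 3.58.1, R 4.3.3) by the quasi-likelihood test. Low genes were removed by filterByExpr (minimum count 10, total 15, grouped by genotype), leaving 20353. The 18 libraries were scaled by TMM and fitted with genotype plus family. P-values were Benjamini-Hochberg adjusted over all genes within a comparison, at 0.05. The SE is the log2 fold change over the square root of the F value, and the prior count behind folds was 0.125. Directions within families came from log2(CPM + 0.5). Single values over families were compared by exact permutation of signs, two-sided. The fit was also run on simulated counts with the same dispersion for every gene, no family effect and no libraries that stood apart. That run does not cover these features of the data.

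Family was kept as a block because its libraries share 1 pair of parents. Deviations from genotype means had a median r of 0.184 over 18 same-family pairs, 4 of them below 0.1, and −0.0674 over 90 other pairs. Each family gave 1 library per genotype and family is in the fit. The p-values therefore measure how differences between genotypes vary from family to family, not the spread of levels between families. The precision of a low gene is set by its count, given beside it.

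The genes of the set, the pathway lists, the Stat3 target list, the marker lists and the rule for named genes were chosen with earlier results of these data known. The pathway counts omit genes that are not reported here. The rule takes every gene of the set, up to 6 genes of smallest p per pathway or target list among those past the test for Hom against WT, and the 8 genes most like socs3 (ENSDARG00000025428) by each r. Alternatives were DESeq2 1.42.0, RLE scaling or library totals, no filter, a filter of 1 CPM in 6 libraries, no family block, and leaving out each family or library. Leaving out the 3 libraries that stood apart was added after the data were seen.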

Additional observations from a re-analysis of the deposited data

Results flagged for a closer look

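In 101 groups of 6 libraries (34 genes), 19 had 1 library whose gap to its nearest neighbour exceeded Dixon's 95% critical value as a share of the group's range. For normally distributed values that limit flags about 1 in 20 groups. Here it was applied to CPM without a log, and each flagged library was the highest of its group. The count of 19 can therefore not be set against chance. Values are normalised CPM.

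The WT library of family 6 held 8 of these for genes of the same pattern. socs3 (ENSDARG00000025428) stood at 22.8 there, with the next WT library at 7.16. cebpd stood at 18.9 (next 7.16), igfbp1 at 22.9 (next 9.19) and dusp1 at 24.8 (next 13.9). mych stood at 13.6, trib3 at 15.5, nr4a1 at 11.3 and dhodh at 21.9. These genes were named for their likeness to socs3 (ENSDARG00000025428), so their flags are not independent of it. The Het library of family 6 was high for igfbp1 at 18.5, for nr4a1 at 11.3 and for zgc:122979 at 260.

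The Hom library of family 3, which stood apart, was high for jak2a at 155 (next 55.2), for lepb at 0.895 (next 0.355) and for junb (ENSDARG00000074378) at 88.9 (next 48.9). The Het library of family 3 was high for il11b at 0.109, from a total of 5 reads in all Het libraries.

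The remaining values were il6st in WT of family 3 at 63.2 (next 56.1), lepr in WT of family 5 at 32.8 (next 24.9), clcf1 in Hom of family 4 at 2.02 (next 1.1) and stat2 in WT of family 4 at 39.6 (next 29.8).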

How the results depend on the processing

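Both socs3 genes kept their direction and passed for Hom against WT and Hom against Het under every alternative run. Calls of stat3 for Hom against WT were lost in 10 of 24 fits that left out 1 family or library (adjusted p from 0.0128 to 0.118), as were those for Hom against Het (0.0131 to 0.086), and those of il6st for Hom against Het in 20 of 24 (0.0271 to 0.169). In the same fits for Hom against WT the call was lost in 2 for il11b, 7 for lifrb, 7 for junb (ENSDARG00000074378), 10 for mcl1b, 10 for pim1, 15 for ptprc, 16 for stat2 and 20 for vegfa (ENSDARG00000034700). Depth limited lepb and il11a. Without the 3 libraries that stood apart, the set had 7 calls for Hom against WT (6 higher, 1 lower), the pathway 16 and 6 for Hom against WT and Hom against Het, and all genes 1658 (981 higher, 677 lower) and 981. DESeq2 called 10 and 8 pathway genes, and 1054 (688 higher, 366 lower), 2 and 1626 (789 higher, 837 lower) of all genes for Hom against WT, Het against WT and Hom against Het. With library totals in place of TMM, 398 were higher and 43 lower for Hom against WT and 332 and 59 for Hom against Het. A filter of 1 CPM in 6 libraries left 1 pathway call for Hom against Het. With no replicate block, the set had 2 and 3 calls, the pathway 4 and 2, and all genes 341 and 423 for Hom against WT and Hom against Het; the calls lost in the set were those of stat3. Leaving out 1 family or library gave, for Hom against WT, 1 to 11 pathway calls and 142 to 716 over all genes, and for Hom against Het 2 to 4 calls in the set, 1 to 5 in the pathway and 127 to 662 over all genes.

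The sign turned for values near 0 that did not pass, and for jak2a; the cause was not tested. Without the 3 libraries, jak2a stood at −0.305 and −0.282 and lepb at −0.121 and −0.398 for Hom against WT and Hom against Het, jak2 at 0.047 for Het against WT, and lepr at 0.057, 0.008 and 0.049 for Hom against WT, Het against WT and Hom against Het. For lepr, Hom against WT was 0.077 with library totals and 0.005 with the stricter filter, and Hom against Het was 0.006 with DESeq2, 0.005 with RLE, 0.09 with library totals, 0.009 with the stricter filter and 0.004 with no replicate block. dhodh stood at 0.019 with library totals. Leaving out 1 family or library gave ranges that crossed 0. For Hom against WT these were −0.003 to 0.105 for jak2, −0.402 to 0.26 for jak2a, −0.128 to 0.507 for lepb, −0.075 to 0.057 for lepr and −0.115 to 0.003 for dhodh. For Het against WT they were −0.17 to 0.023 for socs3 (ENSDARG00000026611), −0.08 to 0.077 for stat3, −0.062 to 0.075 for jak1, −0.128 to 0.013 for jak2, −0.038 to 0.444 for lepb and −0.049 to 0.044 for lepr. For Hom against Het they were −0.095 to 0.623 for jak2a, −0.32 to 0.36 for lepb and −0.059 to 0.062 for lepr.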
